A study of Mus musculus with 6 samples.

Results

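Transcript levels of 40 genes that fold proteins in the endoplasmic reticulum (ER) or remove misfolded ones from it were compared between C2S and PM_control RAW264.7 cells. The 40 genes were a list of stress sensors, chaperones, disulfide enzymes and genes of ER-associated degradation (ERAD), chosen with earlier results of these data known. They were matched by symbol among the 52636 genes of each deposited table, and all 40 were found. RAW264.7 is a macrophage line from BALB/c mice. Total RNA was sequenced in 3 C2S libraries (24 h with 150 µg/ml of C2S, which the labels call an extract) and in 3 PM_control libraries (no C2S, 0 µg/ml), all from cells grown in high-glucose DMEM with serum. The labels spell out neither C2S nor PM and give neither a vehicle for the controls nor a genetic change in either group. Whether replicates came from different cultures is not in the labels, and the spread that the p-values rest on may be technical.

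Proteins that enter the secretory pathway fold in the ER with the help of HSP70 and HSP90 chaperones, lectin chaperones that read their glycans, and enzymes that form disulfide bonds. When unfolded proteins build up, 3 sensors signal to the nucleus: IRE1 (Ern1) splices the mRNA of Xbp1 into that of an active transcription factor, ATF6 is cut in the Golgi to free another, and PERK (Eif2ak3) favours translation of Atf4. ATF6 is best known for inducing chaperones, and XBP1 for inducing co-chaperones, translocation and ERAD genes, with many targets shared. ERAD recognises terminally misfolded proteins, moves them to the cytosol and hands them to the proteasome. Macrophages secrete cytokines and lysosomal enzymes made in this compartment.

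Promoter sequences are shown so that the motifs of the genes with the largest changes can be set beside those of the classical chaperone genes. RefSeq promoter windows (GRCm38.p6, 250 bases before to 50 after the start) were matched for 35 of the 40 genes; the others were Atf6, Derl1, Hyou1, Manf and Sec61a1. Windows were searched on both strands, for exact letters only, for the ER stress element ERSE, which NF-Y and ATF6 or XBP1 bind (CCAAT, 9 bases of any kind, CCACG), for ERSE-II (ATTGG, 1 base of any kind, CCACG), for the XBP1 element UPRE (TGACGTGG) and for a core that ATF4 binds with C/EBP partners (TTGCATCA). The ERSE was first described in chaperone promoters such as those of Hspa5, Hsp90b1 and Calr, and ERSE-II in that of the human HERPUD1, so their presence there is no finding. The first 3 sequences give the 150 bases before the start of Herpud1 and Dnajb9, which had the largest rises among their functional groups, and of Hspa5, the classical target. The others give the ERSE with its flanks in genes of several roles that hold one. Capitals mark motif letters outside the spacer of the ERSE; in the Herpud1 line they mark the ATF4 core and then ERSE-II, and the Dnajb9 stretch has no match. All are written along the gene's own strand.
Herpud1, chr8:94386279-94386428, plus strand: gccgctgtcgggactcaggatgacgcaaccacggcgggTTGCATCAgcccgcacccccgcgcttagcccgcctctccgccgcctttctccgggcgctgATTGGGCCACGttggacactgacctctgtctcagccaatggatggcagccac
Dnajb9, chr12:44210069-44210218, minus strand: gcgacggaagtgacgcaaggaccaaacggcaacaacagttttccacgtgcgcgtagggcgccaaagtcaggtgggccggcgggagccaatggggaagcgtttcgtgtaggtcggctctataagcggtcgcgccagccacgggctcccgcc
Hspa5, chr2:34771940-34772089, plus strand: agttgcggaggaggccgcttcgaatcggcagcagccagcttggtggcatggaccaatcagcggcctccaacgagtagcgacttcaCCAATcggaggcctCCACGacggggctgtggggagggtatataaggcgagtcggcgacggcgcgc
Calr, chr8:84847069-84847099, minus strand: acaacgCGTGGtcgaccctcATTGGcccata
Hsp90b1, chr10:86705527-86705557, minus strand: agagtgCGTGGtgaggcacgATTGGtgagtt
Creld2, chr15:88819514-88819544, plus strand: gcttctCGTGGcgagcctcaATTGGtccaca
Pdia6, chr12:17266485-17266515, plus strand: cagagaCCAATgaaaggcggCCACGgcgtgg
Ero1lb, chr13:12565676-12565706, plus strand: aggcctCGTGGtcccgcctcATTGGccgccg
Dnajc3, chr14:118937821-118937851, plus strand: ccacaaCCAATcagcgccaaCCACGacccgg
Syvn1, chr19:6046526-6046556, plus strand: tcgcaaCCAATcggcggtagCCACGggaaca

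Macrophage markers were abundant: all 8 genes checked, among them Adgre1, Cd68 and Csf1r, were detected, with summed levels of 6956 to 7229 TPM in C2S libraries and 6764 to 7086 TPM in PM_control libraries (TPM is an abundance scaled for transcript length and library size). Single markers differed: Cd14 was at 600 to 665 TPM with C2S and 958 to 1092 TPM in controls, and Itgam at 110 to 129 TPM with C2S and 73.7 to 77.6 TPM in controls. Summed markers of T cells, epithelial cells and fibroblasts were at most 0.23 TPM in any library. Summed plasma cell markers were 15.1 to 15.7 TPM with C2S and 13.2 to 16.2 TPM in controls, nearly all Sdc1. Summed osteoclast markers were 6.0 to 6.37 TPM with C2S and 6.66 to 7.4 TPM in controls, mostly Acp5. Summed B cell markers were 2.48 to 4.64 TPM with C2S and 0.12 to 0.54 TPM in controls, with counts for Cd79a and Cd79b and none for Ms4a1. Summed endothelial markers were 2.01 to 4.73 TPM with C2S and 0.48 to 0.53 TPM in controls, mostly Pecam1. The part of any of these lists in the results was not tested. Total estimated counts were 8594485 to 10491307 in C2S libraries and 9149574 to 10665869 in controls, and 3 counts, the floor used here, were worth 0.281 to 0.349 CPM (counts scaled to library size only). In bulk RNA, fewer cells of a type and less RNA per cell cannot be told apart.

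The response of these genes was uneven: 4 rose at least 2-fold, Xbp1 and Edem3 fell, and most chaperones and ERAD genes moved little. Derl3, an ERAD channel component, had 3 counts in all in each group and was not tested, and the other 39 had at least 24 counts in every library. Of these 39, edgeR's quasi-likelihood test called 23 at an adjusted p below 0.05, where 55.4% of all 11561 genes tested were called. With C2S 20 were higher and 3 lower, against 27.0% and 28.4% of all genes tested. The groups did not overlap in 27 of the 39 genes, against 61.1% of all genes tested. Those called at least 2-fold higher were Dnajb9, Herpud1, Crebrf and Ern1 (7.34% of all genes tested) and none was called at least 2-fold lower (7.17% of all genes). Changes of less than 1.5-fold accounted for 32 of the 39, 16 of them called, against 70.6% of all genes tested. The median log2 fold change (C2S over PM_control) was 0.18 over the 39 genes and 0.00 over all genes tested. The count of higher genes depended on the scaling: it was 13 with library sizes alone, with 5 lower, and 11 with limma on log2(TPM + 1), with 4 lower. Higher genes made up 48.8% of all calls in the first test, 38.3% with library sizes alone and 35.9% on log2(TPM + 1).

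**Figure D1:**
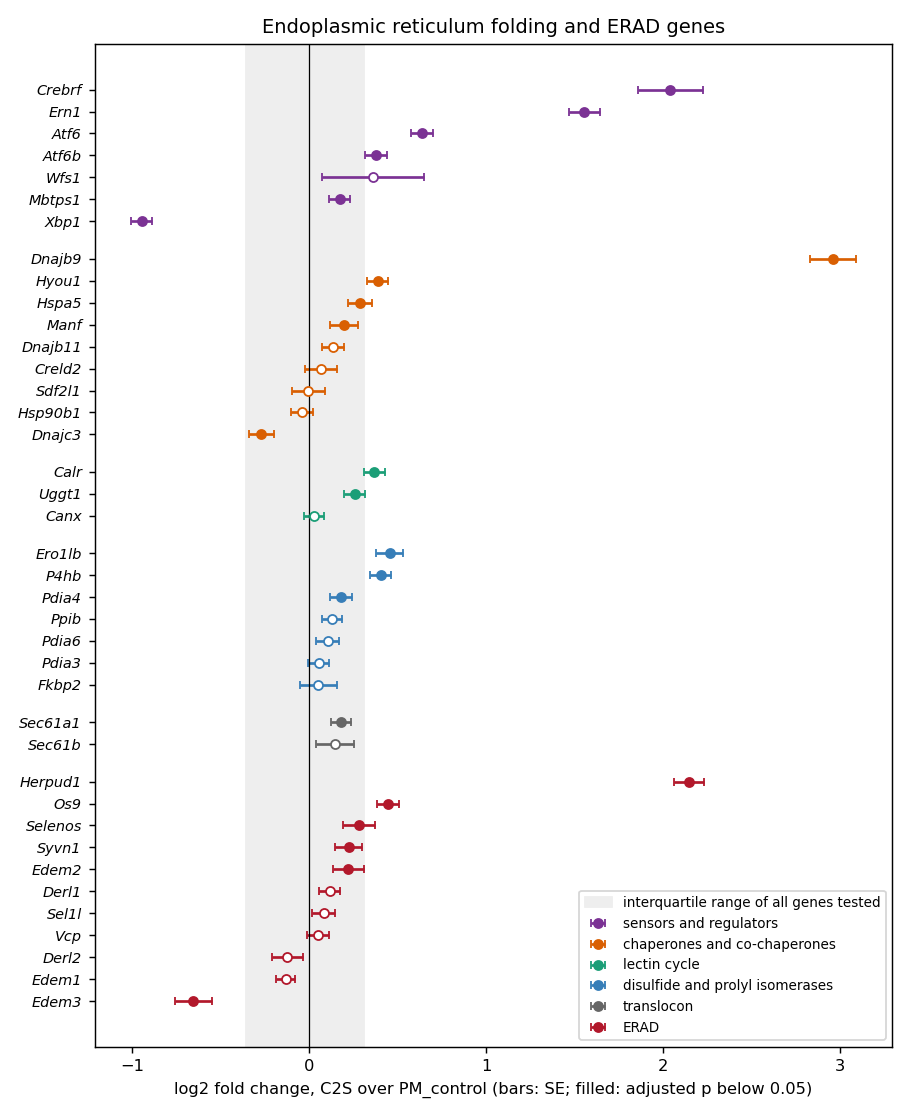
Log2 fold change of each tested gene, C2S over PM_control (horizontal axis), with its SE as bars, grouped and coloured by role; filled points passed the test and the grey band is the interquartile range of all genes tested, from -0.36 to 0.31. Dnajb9, Herpud1, Crebrf and Ern1 lie far to the right, Xbp1 and Edem3 to the left, and most others inside or near the band.

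**Figure D2:**
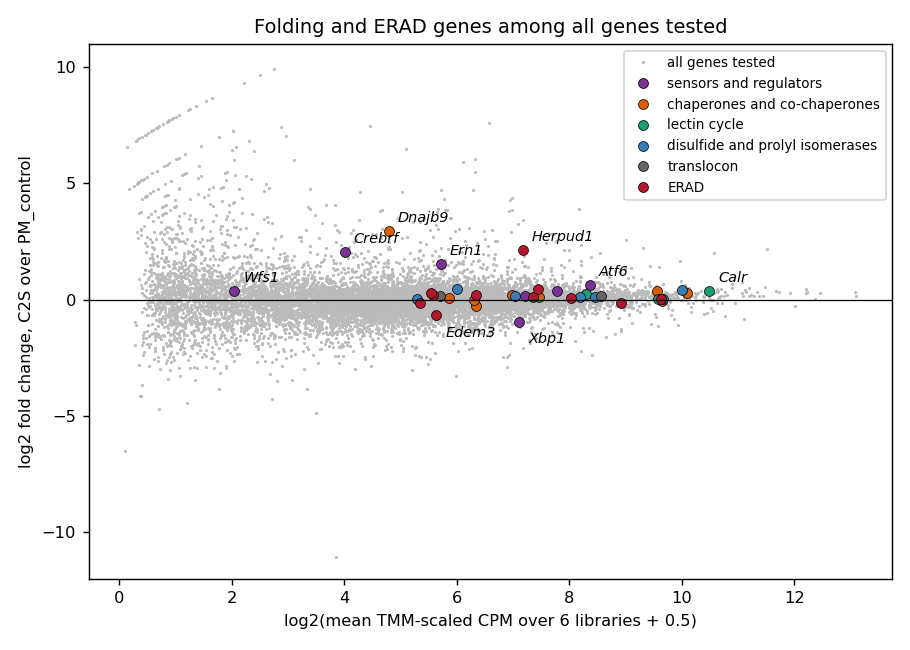
Log2 fold change (vertical axis) against the log2 of the mean TMM-scaled CPM over the 6 libraries (horizontal axis) for all genes tested in grey and the folding and ERAD genes coloured by role. The most abundant of the folding and ERAD genes, Calr, lies at 0.37. The 4 that rose at least 2-fold are of low to middling abundance among the folding and ERAD genes.

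Among the sensors and regulators, 5 of 7 rose and 1 fell, where 27.0% of all genes tested were higher and 28.4% lower. The IRE1 and XBP1 transcripts went opposite ways. Ern1 (ENSMUSG00000020715, chromosome 11, 106394650 to 106487852, minus strand), the sensor kinase and RNase, had 78.2, 82.1 and 72.2 CPM with C2S, against 26.6, 27.8 and 24.7 CPM in controls (CPM scaled by edgeR's TMM factors, as throughout). The groups did not overlap, and the log2 fold change was 1.56 ± 0.09 (SE; edgeR, adjusted p = 1.97e-10). Below, a bare value with ± after a gene is likewise its log2 fold change, C2S over PM_control, with its SE. Xbp1 (ENSMUSG00000020484, chromosome 11, 5520659 to 5525893, plus strand), the mRNA that IRE1 splices, had 91.6, 95.6 and 95.2 CPM with C2S, against 186, 184 and 175 CPM in controls. All C2S values lay below all control values (log2 fold change -0.95 ± 0.06; edgeR, adjusted p = 1.15e-09). Counts per gene do not tell spliced from unspliced Xbp1 mRNA, so the activity of IRE1 was not measured. In TPM, the ratio of Xbp1 to Ern1 was 3.90 ± 0.257 with C2S and 19.1 ± 1.61 in controls (SD, n = 3 each; exact permutation test, two-sided p = 0.1, the smallest that 3 against 3 allows).

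Both ATF6 genes rose. Atf6, a membrane-bound transcription factor, had 403, 422 and 378 CPM with C2S, against 271, 256 and 248 CPM in controls. Every C2S library was above every control library, and the log2 fold change was 0.64 ± 0.06 (edgeR, adjusted p = 2e-07). Atf6b, its close relative, had 260, 247 and 234 CPM with C2S, against 193, 194 and 184 CPM in controls, again without overlap (log2 fold change 0.38 ± 0.06; edgeR, adjusted p = 5.08e-05). Mbtps1, the site-1 protease that cuts ATF6, was called at 0.17 ± 0.06 (edgeR, adjusted p = 0.0224) but missed the threshold when C2S replicate 3 or PM_control replicate 1 or 3 was left out, at adjusted p of up to 0.0912. It was at -0.01 on log2(TPM + 1). Its model-weighted transcript length was 4148 bases with C2S and 3931 bases in controls, and the part of that difference was not tested. Crebrf, a regulator that recruits the transcription factor CREB3 (LUMAN) and promotes its degradation, had 24.9, 26.0 and 24.5 CPM with C2S, against 8.53, 5.16 and 4.41 CPM in controls. Its log2 fold change of 2.04 ± 0.18 (edgeR, adjusted p = 8.36e-08) rests on low levels, and PM_control replicate 1 was the highest of the controls. Wfs1, an ER membrane protein that restrains ATF6, had 4.08 ± 0.997 CPM with C2S and 3.17 ± 0.789 CPM in controls (SD, n = 3 each), and its groups overlapped (edgeR, adjusted p = 0.303).

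**Figure D3:**
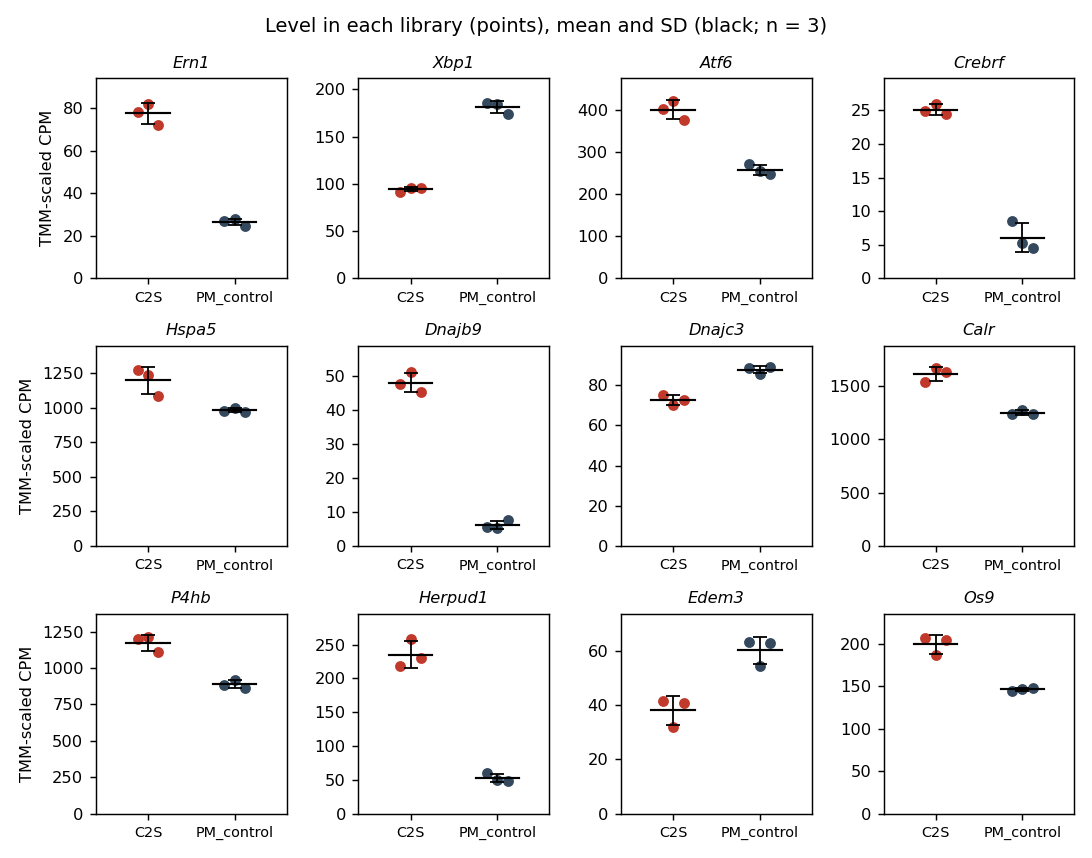
TMM-scaled CPM in each library (points; C2S left, PM_control right in each panel) for 12 genes, with the mean and SD in black; each vertical axis starts at 0. Ern1, Crebrf, Dnajb9 and Herpud1 show C2S libraries far above the controls, and Xbp1, Dnajc3 and Edem3 show them below.

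Of 8 genes counted here as ATF6 targets, 5 rose and none fell, all by small amounts, with a median log2 fold change of 0.19, where 27.0% of all genes tested were higher and 28.4% lower. Hspa5, the master HSP70 chaperone BiP, had 1271, 1240 and 1086 CPM with C2S, against 980, 996 and 972 CPM in controls. C2S replicate 3 was the lowest of its group yet above every control, and the log2 fold change was 0.29 ± 0.07 (edgeR, adjusted p = 0.00149), though limma on log2(TPM + 1) did not call it (adjusted p = 0.0735). Hyou1, a large HSP70 that exchanges BiP's nucleotide, had 873, 849 and 855 CPM with C2S, against 697, 655 and 620 CPM in controls, and the groups did not overlap (0.39 ± 0.06; edgeR, adjusted p = 4.4e-05). Calr, the lectin chaperone calreticulin, had 1536, 1666 and 1635 CPM with C2S, against 1233, 1278 and 1239 CPM in controls with no overlap (log2 fold change 0.37 ± 0.06; edgeR, adjusted p = 6.6e-05). The disulfide isomerase gene Pdia4 (0.18 ± 0.06; edgeR, adjusted p = 0.0231) and Manf, a secreted cofactor of BiP (0.20 ± 0.08; edgeR, adjusted p = 0.0431), were called near the threshold. Pdia4 missed it without C2S replicate 2 or PM_control replicate 1 or 3 (adjusted p of up to 0.093), and Manf missed it without any single library except C2S replicate 2 (adjusted p of up to 0.242), with overlapping groups.

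The other 3 of these genes did not pass the test. Hsp90b1, the HSP90 chaperone GRP94, was at -0.04 ± 0.06, with exons that overlap another gene over 10.3% of their bases, and its value is uncertain. Sdf2l1, which joins a BiP co-chaperone complex, was at -0.01 ± 0.09, and Creld2, an ER-resident disulfide isomerase, at 0.06 ± 0.09. The signs of these 3 values changed with the setting: Hsp90b1 was at 0.16 once the GC trend of each library was removed, Sdf2l1 at 0.07 without PM_control replicate 3, and Creld2 at -0.02 with library sizes alone.

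Of 6 genes counted as XBP1 targets outside ERAD, 2 rose and 1 fell (median log2 fold change 0.14), a share of 50% called against 55.4% of all genes tested, and the co-chaperones of BiP differed. Dnajb9 (ENSMUSG00000014905, chromosome 12, 44205559 to 44210326, minus strand), known as ERdj4, had 47.7, 51.2 and 45.5 CPM with C2S, against 5.60, 5.36 and 7.66 CPM in controls, where it had 61, 53 and 73 counts. This was the largest change of the 39 genes, a log2 fold change of 2.96 ± 0.13 (7.78-fold; edgeR, adjusted p = 9.31e-12), and 2.15% of all genes tested changed as much in either direction. Dnajb11, the co-chaperone ERdj3, had 180, 177 and 198 CPM with C2S, against 170, 168 and 168 CPM in controls. It did not pass the test (0.13 ± 0.06; edgeR, adjusted p = 0.0738), though it did without C2S replicate 2 (adjusted p = 0.0372). Dnajc3, the co-chaperone p58IPK, had 75.2, 70.1 and 72.5 CPM with C2S, against 88.5, 85.8 and 88.9 CPM in controls. Its groups did not overlap and its log2 fold change was -0.27 ± 0.07 (edgeR, adjusted p = 0.00351), but the call ended once the GC trend was removed (-0.12; adjusted p = 0.155).

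The translocon gene Sec61a1, which encodes the channel itself, had 400, 416 and 395 CPM with C2S, against 350, 368 and 352 CPM in controls (0.18 ± 0.06; edgeR, adjusted p = 0.0128), and missed the threshold without PM_control replicate 1 (adjusted p = 0.0509). Its partner subunit Sec61b did not pass the test (0.15 ± 0.11; edgeR, adjusted p = 0.259), and its groups overlapped. Pdia6, a disulfide isomerase that also acts on IRE1, did not pass either (0.10 ± 0.06; edgeR, adjusted p = 0.184), except without C2S replicate 2 (adjusted p = 0.0358).

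In TPM, which allows levels of different genes to be set side by side, Hspa5 stood at 24.5, 22.8 and 22.6 times the level of Dnajb9 with C2S, against 164, 173 and 120 times in controls. The ratio of Hspa5 to Dnajb11 was 4.58 ± 0.578 with C2S and 4.10 ± 0.0473 in controls (SD, n = 3 each; exact permutation test, two-sided p = 0.4). The first ratio did not overlap between the groups, and the second did not differ beyond the spread between libraries.

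Of the 3 genes of the lectin cycle, Calr and Uggt1 rose and Canx did not pass the test. The share called was 66.7%, against 55.4% of all genes tested. Uggt1, which reglucosylates misfolded glycoproteins for another round of folding, had 346, 347 and 338 CPM with C2S, against 299, 291 and 274 CPM in controls (0.26 ± 0.06; edgeR, adjusted p = 0.00118), though limma on log2(TPM + 1) did not call it (adjusted p = 0.119). Canx, the membrane-bound partner of calreticulin, had 744 to 811 CPM with C2S and 741 to 766 CPM in controls, and its groups overlapped (0.03 ± 0.06; edgeR, adjusted p = 0.73). With the GC trend removed Canx was called at 0.22 (adjusted p = 0.00346).

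Of 7 genes of disulfide formation and proline isomerisation, P4hb, Ero1lb and Pdia4 rose and none fell. The share called, 42.9%, was below the 55.4% of all genes tested. P4hb, protein disulfide isomerase, had 1196, 1212 and 1112 CPM with C2S, against 883, 918 and 863 CPM in controls with no overlap (log2 fold change 0.40 ± 0.06; edgeR, adjusted p = 2.89e-05). Ero1lb, an oxidase that recharges such isomerases, had 70.9, 75.7 and 74.5 CPM with C2S, against 53.4, 53.4 and 54.7 CPM in controls (0.45 ± 0.08; edgeR, adjusted p = 7.48e-05). The isomerase gene Pdia3, which works with the lectin chaperones, was at 0.05 ± 0.06, and the prolyl isomerase genes Ppib and Fkbp2 at 0.13 ± 0.06 and 0.05 ± 0.10; none passed the test. Exons of Ppib overlap those of Snx22, and its value is uncertain.

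Of the 11 ERAD genes tested, 5 rose and 1 fell, with a median log2 fold change of 0.11. The share called, 54.5%, was near the 55.4% of all genes tested. Herpud1 (ENSMUSG00000031770, chromosome 8, 94386438 to 94395377, plus strand), a membrane protein that helps assemble the ubiquitin ligase complex, had 218, 258 and 230 CPM with C2S, against 59.9, 50.5 and 48.6 CPM in controls. The log2 fold change was 2.15 ± 0.08 (4.43-fold; edgeR, adjusted p = 1.86e-12), and every C2S library was well above every control. Os9, a lectin that delivers glycoproteins to the ligase, had 207, 187 and 204 CPM with C2S, against 144, 147 and 148 CPM in controls (0.45 ± 0.06; edgeR, adjusted p = 9.8e-06). Edem3, a mannosidase that trims glycans for ERAD, had 41.6, 32.0 and 40.9 CPM with C2S, against 63.2, 54.4 and 63.2 CPM in controls. C2S replicate 2 was the lowest, the groups did not overlap, and the log2 fold change was -0.66 ± 0.10 (edgeR, adjusted p = 4.22e-05).

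Values of the ligase complex itself were small. Syvn1, the ubiquitin ligase HRD1, was called at 0.22 ± 0.08 (edgeR, adjusted p = 0.022), while its scaffold Sel1l was at 0.08 ± 0.06 (edgeR, adjusted p = 0.302), and the TPM ratio of Sel1l to Syvn1 was 2.04 ± 0.262 with C2S and 2.01 ± 0.192 in controls (SD, n = 3 each). Selenos, which tethers the ATPase VCP to the membrane, was called at 0.28 ± 0.09 (edgeR, adjusted p = 0.0159) and the mannosidase-like Edem2 at 0.22 ± 0.09 (edgeR, adjusted p = 0.0403). These calls were lost without single libraries: Syvn1 without C2S replicate 3 or PM_control replicate 2 or 3 (adjusted p of up to 0.127), Selenos without C2S replicate 1 or 3 or PM_control replicate 1 (adjusted p of up to 0.0674), and Edem2 without any single library except C2S replicate 3 (adjusted p of up to 0.145). Edem1 was at -0.14 ± 0.06, just short of the threshold (edgeR, adjusted p = 0.0504) with all C2S values below all control values, and it passed in 8 of 17 alternatives. The channel genes Derl1 (0.11 ± 0.06) and Derl2 (-0.12 ± 0.09) and Vcp, the ATPase that pulls substrates out of the membrane (0.05 ± 0.06), did not pass, except Derl2 with library sizes alone (-0.21; edgeR, adjusted p = 0.0448). In TPM, Herpud1 stood at 2.38 ± 0.322 times Sel1l with C2S and at 0.620 ± 0.0388 times in controls (SD, n = 3 each).

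By exact letters, the ERSE was frequent among these genes, which include some it was first described in. It had no exact match in the 4 genes that rose at least 2-fold. It was found in 10 of the 35 genes with a window, namely Calr, Canx, Creld2, Derl3, Dnajc3, Ero1lb, Hsp90b1, Hspa5, Pdia6 and Syvn1, and in 37 of 27025 genes overall (0.137%). Of the 9 of them tested, 4 rose and 1 fell, between -0.27 and 0.45, with a median of 0.10. ERSE-II was found in Herpud1, 42 to 52 bases before the start, and in Dnajb11, just after the start, and in 0.0444% of all genes. The ATF4 core was found in 1 of the 35, Herpud1, 105 to 112 bases before the start, and in 1.03% of all genes, and the UPRE was found in Vcp and in 0.714% of all genes. Of the 68 tested genes with the ATF4 core, 24 were called higher (35.3%) and 14 lower (20.6%). Of these 68, 8 were at least 2-fold higher and 4 at least 2-fold lower. Among the 8721 tested genes with a window, 566 were at least 2-fold higher and 611 at least 2-fold lower. For the other motifs, 2 of 15 tested genes with an ERSE, 1 of 9 with ERSE-II and 5 of 90 with the UPRE were at least 2-fold higher. At least 2-fold lower were 0, 0 and 3 of them, in that order. Among all 15 tested genes with an ERSE, 7 were higher (46.7%) and 3 lower. With the UPRE, 30 of 90 were higher (33.3%) and 25 lower (27.8%), and with ERSE-II 2 of 9 were higher and 3 lower. The 8721 tested genes with a window were higher in 27.1% and lower in 29.6%. Whether the shares of any motif differed from these was not tested. A match of letters is not a bound site, and windows of Dnajb9, Ern1 and Crebrf held no match to the letters searched. The Herpud1 stretch shown ends in CCAAT, 9 bases and CCAC, which did not count as an exact ERSE.

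**Figure D4:**
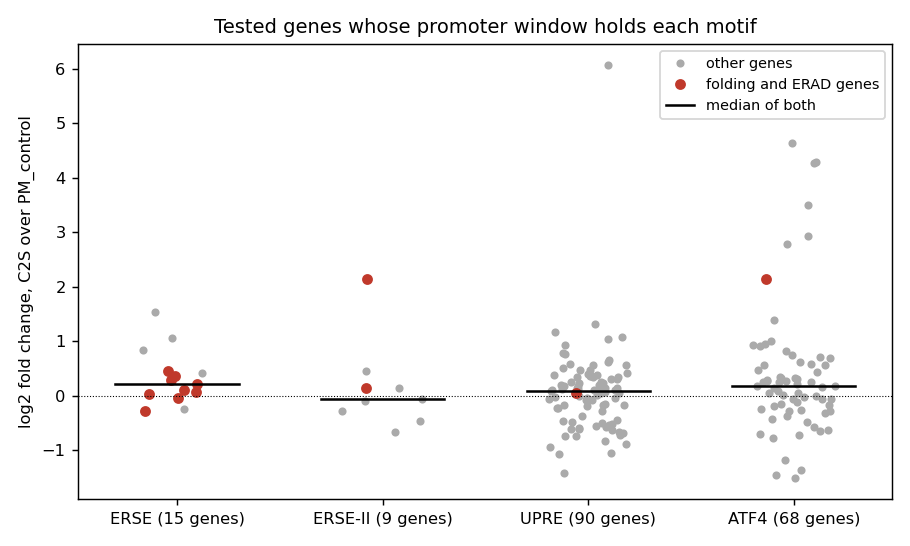
Log2 fold change, C2S over PM_control (vertical axis), of every tested gene whose promoter window holds each motif; red points are the folding and ERAD genes, grey points other genes, and black lines the medians of both together. Red points with an ERSE lie between -0.27 and 0.45, and Herpud1, at 2.15, appears under ERSE-II and under the ATF4 core.

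Together the 40 genes made up 8528, 8391 and 8008 TPM with C2S, against 7746, 7684 and 7686 TPM in controls, or on average 0.831% of all TPM with C2S and 0.77% in controls. The C2S libraries were all above the controls (exact permutation test, two-sided p = 0.1, the smallest possible), and the largest gains in mean TPM were those of Calr (219), Herpud1 (150), P4hb (119) and Hspa5 (85.9). The largest losses were those of Xbp1 (-78.7) and Hsp90b1 (-50.7), and Hsp90b1 was not called. By role, summed TPM was 1669 ± 68.5 with C2S and 1454 ± 33.2 in controls for the lectin cycle, 1198 ± 31.2 with C2S and 1050 ± 24.2 in controls for ERAD, 2335 ± 61.7 with C2S and 2222 ± 10.8 in controls for disulfide and prolyl isomerases, and 2254 ± 147 with C2S and 2132 ± 35.8 in controls for chaperones and co-chaperones (SD, n = 3 each). Sensors and regulators summed to 397 ± 6.16 TPM with C2S and 408 ± 13.6 TPM in controls, and the translocon genes to 455 ± 36.4 TPM with C2S and 440 ± 32.6 TPM in controls (SD, n = 3 each). Herpud1 carried the ERAD difference: without it the ERAD genes summed to 1002, 1014 and 984 TPM with C2S, against 1017, 1007 and 980 TPM in controls, and the groups overlapped. The most abundant gene in both groups was Calr, at 1235 TPM with C2S and 1016 TPM in controls, while Derl3 (0.40 TPM with C2S and 0.33 TPM in controls) and Wfs1 (1.71 TPM with C2S and 1.46 TPM in controls) were the rarest.

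The deposited tables also give a transcript length per gene, weighted over isoforms by RSEM's model, which differs between libraries where the estimated isoform mix differs. It varied in 33 of the 39 genes, and in 3, Mbtps1, Syvn1 and Atf6, the groups did not overlap, by 5.51%, 2.21% and -0.30%. For Ern1 the length was 5902, 6777 and 5322 bases with C2S, against 4807, 5871 and 5068 bases in controls, which overlap, and its mean TPM was 19.2 with C2S and 8.08 in controls. For Crebrf the length ranged from 3016 to 5755 bases with C2S and from 2185 to 4906 bases in controls, so its TPM depends on an unstable isoform estimate. For Xbp1 the lengths were 1987 to 2071 bases with C2S and 2049 to 2071 bases in controls.

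Of 10 genes listed as the PERK branch, none of them among the 40, 7 rose, 6 of them at least 2-fold, and 1 fell. Among all genes tested, 27.0% were higher, 7.34% at least 2-fold higher, and 28.4% lower. The median log2 fold change of the 10 was 2.73. This list, like the others, was chosen with earlier results of these data known, so its counts and median only describe it. Most of these 10 genes also follow phosphorylation of eIF2α by its other kinases, so they do not mark PERK alone. Ddit3, the transcription factor CHOP, had 149 ± 4.49 CPM with C2S and 5.71 ± 0.876 CPM in controls (SD, n = 3 each) (log2 fold change 4.71 ± 0.10; edgeR, adjusted p = 1.29e-15). Ppp1r15a, which directs dephosphorylation of eIF2α, rose by 4.38 ± 0.09, and Eif2s1, eIF2α itself, fell by 0.29 ± 0.06, a call lost with the GC trend removed (adjusted p = 0.596). Eif2ak3, the sensor PERK, did not pass the test (0.19 ± 0.10; edgeR, adjusted p = 0.115), and Atf4, named like Eif2ak3 after its value was seen, rose by 2.03 ± 0.07.

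In the other lists the share called was 68.2% for further ERAD genes, 45.5% for further folding genes, 50% for further translocation genes and 36.4% for the oligosaccharyltransferase, against 55.4% of all genes tested. Of 22 further ERAD genes, 12 rose and 3 fell (median 0.19), with Rhbdd1, a rhomboid protease, at 0.44 ± 0.09, Fam8a1, a cofactor of HRD1, at -0.97 ± 0.16, and Aup1 (0.31 ± 0.06) and the ligase gene Rnf139 (-1.23 ± 0.12), whose exons overlap other genes and whose values are uncertain. Of 22 further folding genes, 8 rose and 2 fell (median -0.00), with Ero1l, the other ER oxidase, at 0.77 ± 0.08, the glucosidase subunit gene Prkcsh at 0.58 ± 0.07, the glucosidase gene Mogs at -0.70 ± 0.07 and the co-chaperone gene Dnajc1 at -0.29 ± 0.10, a value that was 0.19 and not called on log2(TPM + 1). Of 16 further translocation genes, 3 rose and 5 fell (median -0.05), with Serp1, a translocon-associated protein known as RAMP4, at 0.21 ± 0.07, Srprb (uncertain, overlapping exons) at 0.27 ± 0.07, and the signal peptidase subunit genes Spcs3 and Sec11c at -0.43 ± 0.06 and -0.37 ± 0.08. Serp1 missed the threshold without C2S replicate 3 or PM_control replicate 1 or 2 (edgeR, adjusted p of up to 0.0856), and Dnajc1 without C2S replicate 1 or PM_control replicate 1 or 2 (adjusted p of up to 0.0789).

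Of 11 genes of the oligosaccharyltransferase, which glycosylates entering proteins, 3 rose and 1 fell (median 0.12), with Rpn2 (0.38 ± 0.07) and Ddost (0.28 ± 0.06) higher and Tmem258 (-0.27 ± 0.10) lower, the last lost without C2S replicate 1 or PM_control replicate 1 or 2 (edgeR, adjusted p of up to 0.18). Of 3 tested mRNAs that IRE1 is known to degrade in mouse fibroblasts, Hgsnat (0.57 ± 0.09) and Pmp22 (0.57 ± 0.12) rose. The share called was 66.7%, against 55.4% of all genes tested. Bloc1s1 did not pass the test (0.04 ± 0.14; edgeR, adjusted p = 0.834), and 55.9% of its exon bases overlap another gene. Of 11 tested factors that act with the sensors, 1 rose and 4 fell (median -0.24). The share called was 45.5%, and 27.0% of all genes tested were higher and 28.4% lower. Nfya, the NF-Y subunit that binds the CCAAT box of the ERSE, had 93.4 ± 1.53 CPM with C2S and 190 ± 3.41 CPM in controls (SD, n = 3 each) (log2 fold change -1.02 ± 0.06; edgeR, adjusted p = 2.8e-10). Creb3l2, an ER-anchored transcription factor, was at -1.20 ± 0.13, and Tmbim6, an inhibitor of IRE1 and of cell death, at 0.38 ± 0.06.

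Across 17 alternative settings, 13 of the 23 calls kept their direction and their side of the threshold. These were the rises of Ern1, Atf6, Atf6b, Crebrf, Hyou1, Dnajb9, Calr, P4hb, Ero1lb, Herpud1 and Os9 and the falls of Xbp1 and Edem3. The log2 fold change ranged over the settings from 2.61 to 3.21 for Dnajb9, from 2.02 to 2.24 for Herpud1, from 1.38 to 2.38 for Crebrf, from 1.16 to 1.61 for Ern1 and from -1.04 to -0.92 for Xbp1. The other 10 calls were lost under at least 1 setting: those of Mbtps1, Hspa5, Dnajc3, Manf, Uggt1, Pdia4, Edem2, Syvn1, Selenos and Sec61a1, all below 1.5-fold. Mbtps1, Manf, Pdia4, Edem2, Syvn1, Selenos and Sec61a1 missed the threshold with library sizes alone and on both TPM scales, with adjusted p of up to 0.886. Hspa5 and Uggt1 missed it on both TPM scales only, and Dnajc3 only with the GC trend removed.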

How the data were processed

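RNA of 6 libraries was sequenced after TruSeq preparation, per the series design text, which also states that the authors trimmed reads with fastp, aligned them to mm10 with STAR and counted them with RSEM. Not given in the sources used here: tool versions, annotation, strandedness. Per the file headers, the deposited tables hold RSEM's expected counts (estimated reads of each gene); the deposited TPM values are scaled for length and depth, and the deposited lengths are bases; the deposited tables also hold FPKM, which was not used. Expected counts were rounded. Genes passing filterByExpr (minimum count 10, minimum total 15; 11561 genes) were tested with edgeR 4.0.16's quasi-likelihood F test (TMM, group as the only term, Benjamini-Hochberg over all genes, 0.05; limma 3.58.1, DESeq2 1.42.0, R 4.3.3). The SE is the log2 fold change divided by the square root of F, so it is approximate. Alternatives are listed in the closing section. Libraries of a group differed by 4.3 to 6.46 in chi-square per degree of freedom, so none counted as a duplicate. Coordinates and overlaps (at least 10% of exon length called uncertain) come from GENCODE M21, on the same assembly; 52489 of 52636 gene IDs were found in it. Floors cover counting error only.

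The 40 genes, the lists and the motifs were chosen with earlier results of these data, and in part the sequences, known. Values per library are given for Ern1, Atf6, Atf6b and Xbp1, for calls of at least 2-fold and, among called genes, for the 2 smallest adjusted p-values per role; Hspa5, Dnajb11, Dnajc3 and Edem3 were added after their values were seen. Outside the 40, up to 2 genes per list and direction are named by adjusted p.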

Additional observations from a re-analysis of the deposited data

How the results depend on the processing

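Alternatives were RLE and upper quartile normalization, library sizes alone, DESeq2, limma-voom, limma on log2(TPM + 1) and log2(TPM + 0.1) of genes with a mean of at least 1 TPM, testing without a low-count filter or with at least 1 CPM in 3 libraries, the replicate number as a block, removal of each library's GC trend, and leaving out each library. The count of 20 higher genes was 13 with library sizes alone and 11 on both TPM scales, and 14 to 20 with 1 library left out. The count of 3 lower genes was 5 with library sizes alone, and 3 with any library left out. Median log2 fold changes with library sizes alone, on log2(TPM + 1) and on log2(TPM + 0.1) were 0.0906, 0.0749 and 0.0756 for the tested genes, 0.0991, 0.0707 and 0.0711 for ATF6 targets and 0.0521, 0.0250 and 0.0251 for XBP1 targets. The ERAD median was 0.0265 with library sizes alone. Those 3 scalings put the median of all genes tested at -0.09, -0.09 and -0.10, and the median of the folding and ERAD genes lay 0.18, 0.17 and 0.18 above it. That gap was 0.04 with DESeq2 and 0.05 without a low-count filter (19753 genes each), and 0.12 with the GC trend removed. In these settings, in the same order, the median of the folding and ERAD genes was 0.181, 0.155 and 0.157. The median of all genes in the fit was 0.143, 0.105 and 0.0383. The cause of these shifts was not tested.

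Signs turned for small values. With library sizes alone, Creld2 was at -0.0235, Canx at -0.0619, Pdia3 at -0.0360, Fkbp2 at -0.0377, Sel1l at -0.0060 and Vcp at -0.0393. On log2(TPM + 1) and log2(TPM + 0.1), Mbtps1 was at -0.0149 and -0.0151, Creld2 at -0.0447 and -0.0452, Canx at -0.0556 and -0.0557, Pdia3 at -0.0541 and -0.0542, Pdia6 at -0.0126 on both, Fkbp2 at -0.0724 and -0.0729, Vcp at -0.0477 and -0.0478, and Dnajc1 at 0.19 and 0.20. With the GC trend removed, Hsp90b1 was at 0.16 (called), Creld2 at -0.00603, Fkbp2 at -0.0205 and Derl2 at 0.0393, and with RLE Sdf2l1 was at 0.0062. With 1 library left out, ranges crossing 0 were -0.0768 to 0.00029 for Hsp90b1, -0.108 to 0.0706 for Sdf2l1, -0.0139 to 0.0554 for Canx and -0.0105 to 0.15 for Fkbp2.

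Replicate numbers showed no sign of pairing the libraries. Same-numbered libraries had correlations of deviations from their group means between -0.0112 and 0.0686, and others between -0.11 and 0.0819. So few correlations cannot show that the libraries were unpaired. With the replicate block, 20 genes were higher and 4 lower, and the median was 0.18. Depth limits Derl3 and Wfs1, and the control levels of Crebrf and Dnajb9, which rest on few reads.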
